A study of Mus musculus with 68 samples.

Results

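The genes described here are 10 granulosa steroid and gonadal hormone genes, namely Star, Cyp11a1, Hsd3b1, Cyp19a1, Inha, Inhba, Fshr, Lhcgr, Nr5a1 and Amh. They were taken by gene symbol from the 24421 reference genes that every deposited table lists, and each has 1 row per table. The symbols were chosen by function and not by a threshold on a value in these libraries, but with earlier results of these data known. The tables were searched for 3 things, namely the level of the genes in cumulus cells (CCs), their level after somatic cell nuclear transfer (SCNT), and any later expression in cloned embryos and blastocysts.

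Granulosa cells, of which CCs are the layer around the oocyte, make steroid hormones from cholesterol. STAR moves cholesterol into the mitochondrion, CYP11A1 cuts it to pregnenolone, HSD3B1 turns pregnenolone into progesterone, and CYP19A1 (aromatase) turns androgens into estrogens. The receptors for follicle-stimulating hormone (FSHR) and luteinizing hormone (LHCGR) and the nuclear receptor NR5A1 (SF-1) drive these enzymes, while the inhibin and activin subunits INHA and INHBA and anti-Mullerian hormone (AMH) are protein hormones secreted by the same cells. After the ovulatory hormone surge the follicle turns from estrogen to progesterone production.

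RNA was sequenced by Smart-seq2, which copies polyadenylated RNA from a few cells, in 68 mouse libraries. SCNT embryos were made by injecting CCs into enucleated oocytes of BDF1 (B6D2F1) females and activating them with strontium chloride and cytochalasin B. The females were 8 to 10 weeks old and superovulated, and the CCs were collected from the oviduct 14 h after human chorionic gonadotropin (hCG). There were 3 CC libraries, 6 each at 6 h and 14 h post activation (hpa), early 2-cell (E2C), late 2-cell (L2C), 8-cell (8C) and morula, 5 at 4-cell (4C), and 6 each of the inner cells (ICM) and the outer layer, or trophectoderm (TE), of SCNT blastocysts, all untreated and without an introduced allele. A second set holds 12 libraries, 2 each of the ICM and TE of fertilized embryos from C57BL/6j parents that were controls, or were injected as zygotes with a morpholino (MO) against Max or Mcrs1. The controls are labelled as controls and untreated, whereas the methods describe a random control MO. By the study's account, the concentrations of the Max, Mcrs1 and control MO differed from each other in this set. The embryo libraries were made from 10 blastomeres per reaction, so each library pools cells, and the labels do not say which libraries came from the same embryos. They do not say either whether replicates 1 to 3 and 4 to 6 were made together. No library of an oocyte was used here, and SCNT and fertilized embryos differ in strain and were not tested against each other.

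Levels are given as TPM, a measure per transcript length that is relative to all RNA of a library. The reference genes held 81.8 to 82.5% of this scale in CCs and 30.4 to 90.9% in SCNT embryos. In fertilized blastocysts they held 85.5 to 94.4%. The libraries held an estimated 1 to 5.17 aligned gigabases. Read counts are not among the columns, and how many reads stand behind a level is unknown. Between 6177 and 11771 reference genes per library reached 1 TPM. SCNT ICM replicates 1 to 3 had 6177 to 6771 such genes against 9011 to 10032 in replicates 4 to 6. Of 10 cumulus marker genes, 9 had a mean of at least 1 TPM in CCs, where their sum was 1220 to 1451 TPM. Markers of other cells summed to 3.75 to 7.81 TPM for 5 genes of the theca, 0.0158 to 2.25 TPM for 8 of the oocyte, 9.32 to 27.5 TPM for 6 of blood and 4.83 to 8.14 TPM for 4 of endothelium in CCs, with 1 gene of each list at a mean of 1 TPM or more. Of these, Cyp17a1 and Gli1 (theca), Zp1, Zp2, Zp3, Oosp1 and Mos (oocyte), Hbb-bs (blood) and Kdr (endothelium) were listed at 0 in every CC library. In the fertilized set, the targeted gene Max was at 38 and 8.42 TPM in ICM controls against 6.82 and 0.443 TPM after its MO, and at 34.5 and 28.5 TPM in TE controls against 16.3 and 8.68 TPM after its MO. Mcrs1 was at 219 to 310 TPM in the controls and at 41.1 to 86.8 TPM in the Mcrs1 MO libraries. The summed level of 6 TE markers was 354 TPM in one control ICM library and 16011 TPM in the other, the latter near the 18381 and 20547 TPM of the control TE. Both control ICM libraries had more of 5 ICM markers, at 767 and 898 TPM in sum, than the control TE at 211 and 247 TPM.

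CCs carried 9 of the 10 genes, and their levels spanned from 0.44 to 1322 TPM in single libraries. Hsd3b1 was at 1322, 1114 and 1162 TPM in CC replicates 1 to 3 (1200 ± 109, SD, n = 3). It was the highest of the 10 and ranked 60 of 24421 genes by mean. The next enzyme upstream, Cyp11a1, was at 705, 471 and 275 TPM (484 ± 216). Star was at 189, 192 and 145 TPM (175 ± 26.6). Cyp19a1 was only at 3.96, 2.34 and 2.06 TPM (2.79 ± 1.03), rank 8295. The 3 genes of the route to progesterone were thus at 145 TPM or more in every CC library, and the estrogen-forming enzyme at 3.96 TPM or less.

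The protein hormones differed by subunit. Inha, the subunit that makes a dimer an inhibin, was at 1020, 921 and 458 TPM (800 ± 300), rank 129. Inhba, which forms activin with itself and inhibin with INHA, was at 135, 131 and 89.2 TPM (118 ± 25.3). Amh, a product of the granulosa cells of growing follicles, was listed at 0 in all 3 CC libraries and did not exceed 0.184 TPM in any of the 68. Its receptor gene Amhr2 averaged 4.35 TPM in CCs.

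The receptors and the nuclear receptor were low. Lhcgr was at 14.5, 4.94 and 8.33 TPM (9.25 ± 4.83) and Fshr at 3.05, 4.33 and 0.44 TPM (2.61 ± 1.98). For Fshr the third CC library lay below 1 TPM, and only in the second did an assembled locus span the gene. Nr5a1 was at 10, 17.7 and 9.27 TPM (12.3 ± 4.68), and its relative Nr5a2 (LRH-1) averaged 7.73 TPM. Of the other 3β-hydroxysteroid dehydrogenases, Hsd3b6 was at 13.7 TPM in 1 CC library and at 0.093 and 0.127 TPM in the others, and Hsd3b2 was at most 0.101 TPM. The sequences of these genes are close, so reads could be split between them.

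**Figure D1:**
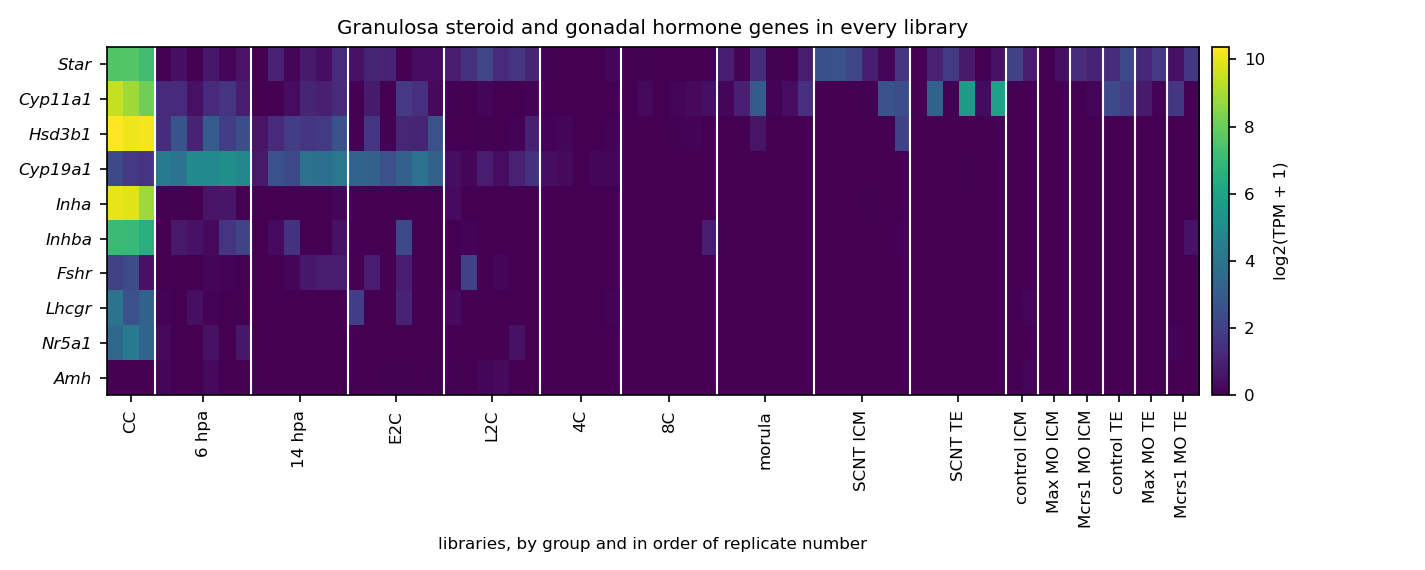
Each row is a gene and each column 1 of the 68 libraries, with colour for log2(TPM + 1) and white lines between groups. The CC columns are brightest in the Hsd3b1, Inha and Cyp11a1 rows, the Cyp19a1 row is brightest at 6 hpa, and 3 SCNT TE libraries stand out in the Cyp11a1 row at 8.27, 49.1 and 60 TPM.

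The bases before the annotated starts of Hsd3b1 and Cyp11a1, the enzymes among the 10 genes with the highest levels in CCs, are shown for reference. The letters AGGTCA, or their complement on the other strand, are in capitals, and the Hsd3b1 stretch holds none. AGGTCA is the half-site that nuclear receptors recognise, and AAGGTCA, which contains it, is the form preferred by the NR5A receptors. The sequences are RefSeq's for GRCm38.p6, 250 bases on the gene's strand. The Hsd3b1 stretch, chr3:98859795-98860044 on the minus strand, ends at the start given in the tables. The Cyp11a1 stretch, chr9:58014702-58014951 on the plus strand, ends 65 bases before it.
Hsd3b1: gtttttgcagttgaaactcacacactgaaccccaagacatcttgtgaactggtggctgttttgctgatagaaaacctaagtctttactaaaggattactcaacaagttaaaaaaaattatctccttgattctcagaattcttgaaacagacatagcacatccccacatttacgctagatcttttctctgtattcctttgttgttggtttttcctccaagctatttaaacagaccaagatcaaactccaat
Cyp11a1: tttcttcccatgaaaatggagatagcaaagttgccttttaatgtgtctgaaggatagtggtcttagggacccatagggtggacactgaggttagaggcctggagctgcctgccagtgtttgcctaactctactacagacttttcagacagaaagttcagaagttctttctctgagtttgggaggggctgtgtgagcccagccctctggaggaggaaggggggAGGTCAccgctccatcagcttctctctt
RefSeq gave 10 such stretches for 7 of the 10 genes. AGGTCA was in 4 of them, 1 each of Inha, Cyp11a1, Lhcgr and Cyp19a1, and in 14% of all 32817 stretches of this length. Of these 4, the Lhcgr stretch ends 38 bases before the start in the tables and the Cyp19a1 stretch 74722 bases before it. The Inha stretch, chr1:75507359-75507608 on the plus strand, lies inside the gene, which starts at 75507077 in the tables. AAGGTCA was in 0 of the 10 and in 4.08% of all, and TGACGTCA, the cyclic AMP response element, in 0 of the 10 and in 1.55% of all. The letters were chosen with the sequences in view, and a match is not evidence of binding.

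At 6 hpa, 8 of the 10 genes were lower than in CCs and Cyp19a1 was higher. Of the 9 genes that passed the filter (at least 1 TPM in at least 3 of the 56 CC and SCNT libraries), all 9 passed the threshold of limma, a Benjamini-Hochberg adjusted p under 0.05 with a change of at least 2-fold on log2(TPM + 1). Among all 16128 genes tested, 51.9% passed in either direction, 30.9% lower and 21% higher. The median change of the 9 genes was -6 on the log2 scale, against -0.10 for all genes tested. Inha and Nr5a1 passed the filter through the 3 CC libraries alone and Fshr through 2 of them and 1 at L2C, so that a lower level elsewhere was built into their passing, and the count and median of the 9 are a description. The tenth gene, Amh, did not pass the filter. Since a library holds a share of RNA, a loss of these transcripts and their dilution in the RNA of the oocyte cannot be told apart, nor can transcripts brought by the CC from those already in the oocyte.

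Of the enzymes that fell, Hsd3b1 was at 1.05 to 7.2 TPM in the 6 libraries at 6 hpa, with a median of 3.7. Every one of them lay below every CC library, and the fall was 8.14 on the log2 scale (SE 0.40, adjusted p = 2.5e-24). Cyp11a1 was at 0.385 to 2.01 TPM, with a median of 1.36 (log2 fold change -7.72, SE 0.77, adjusted p = 1.2e-12). Star was at 0.0403 to 0.602 TPM, with a median of 0.225 (log2 fold change -7.13, SE 0.37, adjusted p = 2.4e-23). The mean at 6 hpa was thus 0.315% of that in CCs for Hsd3b1, 0.251% for Cyp11a1 and 0.153% for Star.

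Of the hormones, Inha was at 0 in 3 of the 6 libraries at 6 hpa and reached 0.541 TPM at most, with a mean of 0.175 TPM that is 0.0219% of the CC mean (log2 fold change -9.36, SE 0.16, adjusted p = 4.1e-45). Although Inha was the second most abundant of these genes in CCs, it was not among the highest at 6 hpa. Inhba was at 0, 0.65, 0.403, 0.203, 2.07 and 3.37 TPM in replicates 1 to 6, with a mean of 1.12 TPM that is 0.944% of the CC mean (log2 fold change -6, SE 0.34, adjusted p = 3.7e-22). StringTie assembled transcribed stretches, or loci, on the strand of the gene in 4 of 6 libraries for Inhba and in 0 of 6 for Inha.

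Of the receptors, Lhcgr was at most 0.338 TPM at 6 hpa (log2 fold change -3.13, SE 0.22) and Fshr at most 0.0972 TPM (log2 fold change -1.61, SE 0.27). Nr5a1 was at most 0.594 TPM (log2 fold change -3.45, SE 0.13). For these 3 genes the adjusted p was 5.5e-18, 1.2e-06 and 7.5e-29. Their libraries at 6 hpa all lay below all CC libraries, but for Fshr, whose CC levels were 0.44 to 4.33 TPM, the pseudocount of 1 limits the fold change. A two-sided exact permutation test was run on all 10 genes whether or not they passed the filter, and gave p = 0.0119, the smallest that 84 splits allow, for each gene but Amh (p = 0.5).

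**Figure D2:**
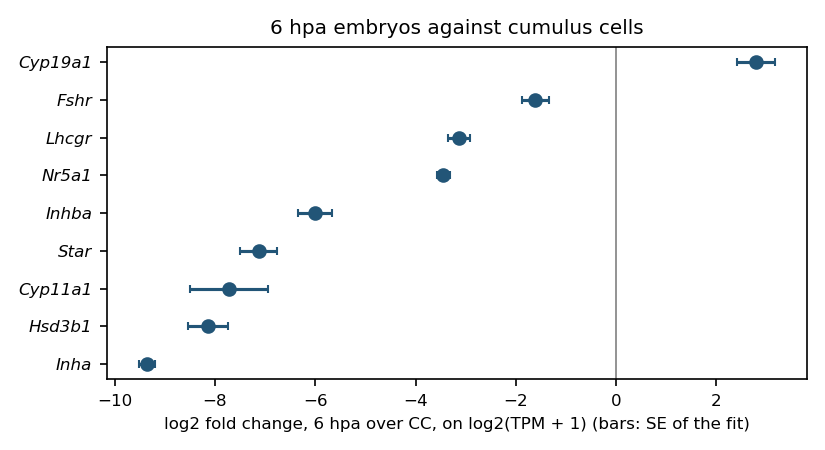
Points are log2 fold changes of 6 hpa over CC on log2(TPM + 1) with the SE of the limma fit as bars, for 6 libraries against 3. The 8 genes from Inha at -9.36 to Fshr at -1.61 lie left of 0 and Cyp19a1 at 2.79 lies right of it.

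Cyp19a1, the aromatase gene, moved in the opposite direction. It was at 18.8, 14.3, 30.2, 29.7, 35 and 26 TPM in replicates 1 to 6 at 6 hpa, all above the highest CC library at 3.96 TPM. The log2 fold change was 2.79 (SE 0.38, adjusted p = 1.0e-08). At 14 hpa it was at 0.616, 5.04, 4.09, 13.9, 13 and 16.7 TPM, lower than at 6 hpa (log2 fold change -1.77, SE 0.31, adjusted p = 3.6e-05), with libraries that overlap. At 14 hpa, replicates 4 to 6 were above replicates 1 to 3. Cyp19a1 was the only one of the 9 genes to pass the threshold in this comparison, in which 8.53% of all genes tested did, 3.79% as lower. This fall was also past the threshold within replicates 1 to 3 and within replicates 4 to 6.

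At E2C Cyp19a1 was at 5.26 to 14.5 TPM with a median of 8.13. Between 14 hpa and E2C 0 of the 9 genes passed the threshold by limma, where 4.59% of all genes did. Without adjustment, p was under 0.05 for 1 of the 9, Lhcgr. At L2C Cyp19a1 was at 0.106 to 1.88 TPM with a median of 0.528, below every E2C library (log2 fold change -2.55, SE 0.31, adjusted p = 4.2e-09). It was 1 of the 9 genes to pass there, against 27.4% of all genes tested and 8.58% as lower. At 4C it was at most 0.323 TPM, and it was listed at 0 in every library at 8C and morula and in the SCNT ICM. In order of mean level, 6 hpa came before 14 hpa, E2C, CCs and L2C. The libraries at 14 hpa overlap those of 6 hpa, E2C, CCs and L2C, whereas 6 hpa, E2C, CCs and L2C do not overlap each other, apart from 1 library at E2C with 14.5 TPM that lies above the lowest at 6 hpa.

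The stretch before the start of Cyp19a1 that lies nearest to the start in the tables, chr9:54193744-54193993 on the minus strand, is shown for reference. The other stretches of Cyp19a1 end 35472 and 74722 bases before the start in the tables. The one shown ends 301 bases before it, so a transcript from that start would not reach the stretch. It holds none of the 3 letter strings.
Cyp19a1: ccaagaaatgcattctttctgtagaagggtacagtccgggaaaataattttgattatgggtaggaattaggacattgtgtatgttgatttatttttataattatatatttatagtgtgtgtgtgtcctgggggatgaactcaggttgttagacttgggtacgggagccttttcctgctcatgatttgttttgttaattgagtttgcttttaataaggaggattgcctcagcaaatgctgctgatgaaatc
The tables place Cyp19a1 at chr9:54165937-54193442, and the GENCODE vM21 transcript with the same ends has 9 exons. A locus assembled from the reads, on the strand of the gene, was present in all 18 libraries from 6 hpa to E2C. In 10 of these 18 libraries its upstream end lay 7230 to 7556 bases after the annotated start, between positions 54185886 and 54186212. This is in the intron between exon 2 (54186681 to 54186831) and exon 3 (54180182 to 54180336), and the limits of this range were set after the ends were seen. Of the 10 libraries, 4 were at 6 hpa, 4 at 14 hpa and 2 at E2C. In the other 8 the upstream end was farther from the start, up to 16832 bases, and in 0 of 18 was it closer. In CCs the upstream end was 134 bases after the start in replicate 2, but 16816 and 26437 bases after it in replicates 1 and 3. Later, 1 of the 4 L2C libraries with a locus had one that began upstream of the start. The part of incomplete coverage in these ends was not tested, and the sequence at that place was not used here.

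**Figure D3:**
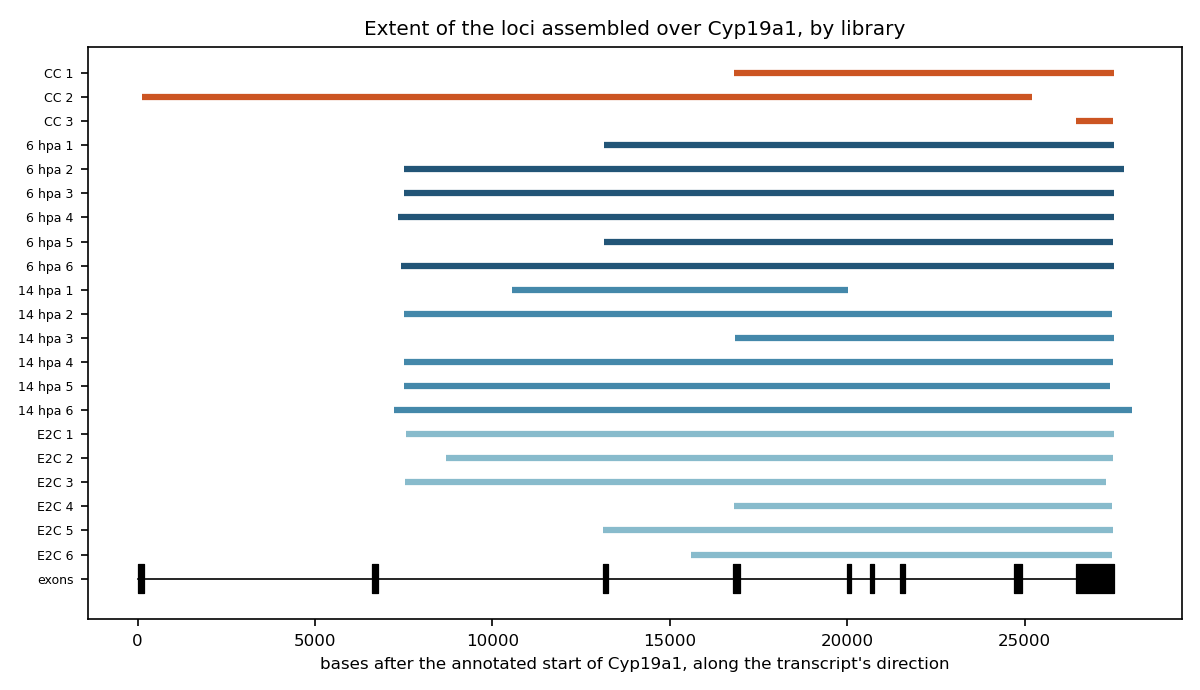
Bars give the extent of the loci assembled over Cyp19a1 in each library of CC, 6 hpa, 14 hpa and E2C, in bases after the annotated start, with the 9 exons in black. Among the 18 embryo libraries 10 bars begin 7230 to 7556 bases after the start and none begins closer to it, while 1 CC bar begins at 134 bases.

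Among the other enzymes of the 10 genes, Hsd3b1 kept the highest mean from 6 hpa to E2C. It was at 0.452 to 5.37 TPM at 14 hpa with a median of 2.25, at 0.027 to 4.87 TPM at E2C with a median of 1.13, and at 0 in 3 of 6 libraries at L2C, where it reached 0.864 TPM at most. None of these steps passed the threshold, and from E2C to L2C the adjusted p was 0.028 at a log2 fold change of -0.9, under 2-fold. The assembled loci spanned at least 99% of the gene in 1 library at 14 hpa and 1 at E2C. Loci on the opposite strand also overlapped Hsd3b1, in 3 of 6 libraries at 6 hpa and in 6 of 6 at both 14 hpa and E2C, and the libraries do not keep the strand, so their reads cannot be told apart from those of the gene where they overlap.

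Cyp11a1 was at most 1.45 TPM at 14 hpa and 2.27 TPM at E2C, and at most 0.094 TPM at L2C. Inhba was at 1.86 TPM in 14 hpa replicate 3 and 3.95 TPM in E2C replicate 4, where the other 5 E2C libraries were at 0. Lhcgr was at 2.65 and 1.04 TPM in E2C replicates 1 and 4 and at 0 in the other 4. At E2C, loci on its strand were present in 2 of 6 libraries and spanned up to 98% of the gene. Loci on the opposite strand overlapped Lhcgr in 6 of 6, so the limit given for Hsd3b1 holds here too. Fshr was at 0 to 0.733 TPM at 14 hpa, with 4 of 6 libraries above 0, and at 0.759 and 0.793 TPM in E2C replicates 2 and 4 and at 0 in the others. At L2C Fshr was at 3.07 TPM in replicate 2 and at most 0.0901 TPM in the other 5. Fshr loci covered at most 5.9% of the gene in any embryo library.

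Star was listed above 0 in every library at L2C. It was at 0.756, 1.77, 3.55, 1.38, 2.08 and 1.08 TPM there, which overlaps E2C at 0 to 1.08 TPM (log2 fold change 0.87, SE 0.31, adjusted p = 0.022, under 2-fold). It fell at 4C, where it was at most 0.12 TPM (log2 fold change -1.36, SE 0.32, adjusted p = 5.4e-04). It was the only one of the 9 genes to pass in that step, against 30.4% of all genes tested and 21.6% as lower, and the median of all genes was -0.29. With quantile normalization the change was -0.63 (adjusted p = 0.15) and Star no longer passed. Between 4C and 8C and between 8C and morula 0 of the 9 genes passed by limma and 0 reached an unadjusted p under 0.05, where 14.8% and 9.57% of all genes passed.

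**Figure D4:**
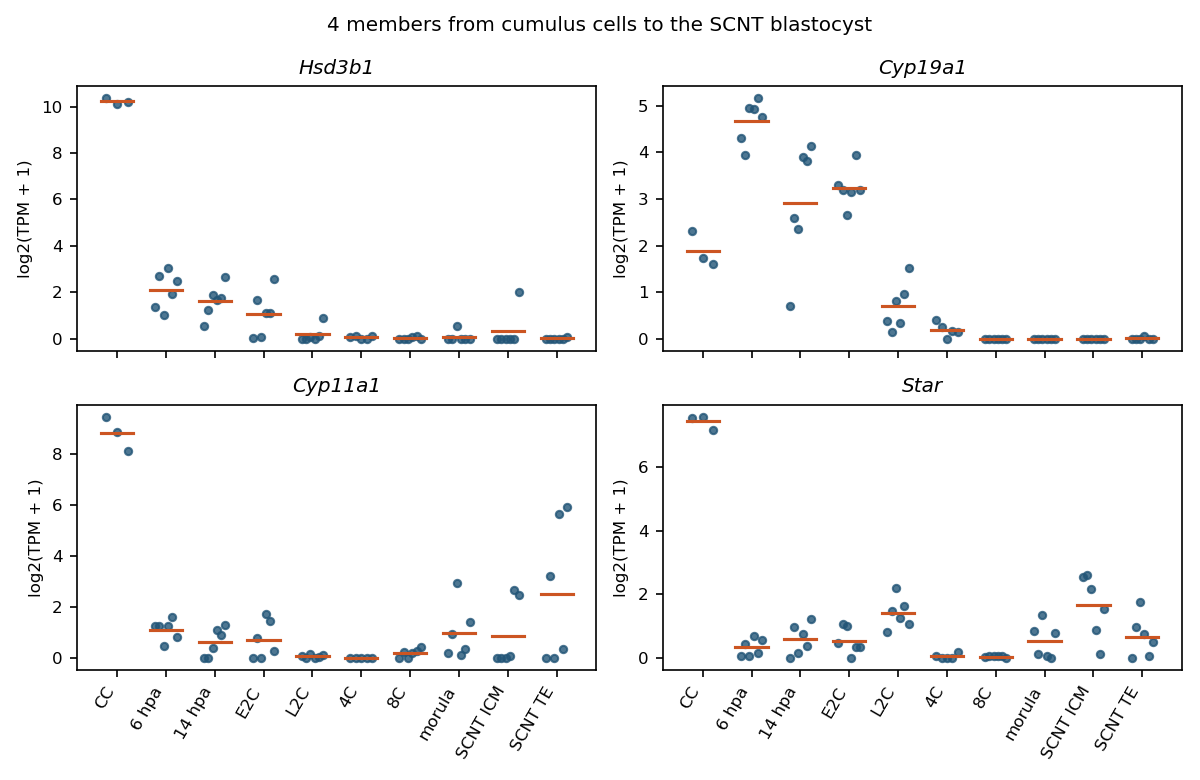
Points are single libraries and orange lines group means of log2(TPM + 1) for Hsd3b1, Cyp19a1, Cyp11a1 and Star from CC to the SCNT ICM and TE, with a separate vertical scale in each panel. Hsd3b1, Cyp11a1 and Star are highest in CC, and Cyp19a1 is highest at 6 hpa, where its libraries lie at 14.3 to 35 TPM.

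In SCNT blastocysts all 9 genes stayed below their level in CCs. In the ICM 9 of 9 were lower and past the threshold, where 33% of all genes tested passed in either direction and 20.2% as lower. In the TE 9 of 9 were lower, where 31.6% passed in either direction and 17% as lower. As at 6 hpa, passing the filter through CC libraries fixed the direction for Inha and Nr5a1 and nearly so for Fshr, so nothing is read from these counts against the shares of all genes. Inha, Inhba, Fshr, Lhcgr and Nr5a1 were listed at 0 in all 6 TE libraries. Both comparisons use the same 3 CC libraries as that with 6 hpa.

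Cyp11a1 was the gene with the highest later level. At morula it was at 0.142, 0.89, 6.61, 0.0712, 0.253 and 1.66 TPM in replicates 1 to 6. In the SCNT TE it was at 0, 8.27, 0, 49.1, 0.251 and 60 TPM, and in the SCNT ICM at 0, 0, 0, 0.0503, 5.36 and 4.49 TPM. The TE libraries fell into 3 at 8.27 TPM or more and 3 at or near 0, so their range overlaps that of the ICM and of the morula.

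The TE mean of 19.6 ± 27.4 TPM (SD, n = 6) was 4.05% of the CC mean. Against the ICM the log2 fold change was 1.65 (SE 0.63, adjusted p = 0.132) and against the morula 1.54 (SE 0.63, adjusted p = 0.0795), so neither difference passed. Of the 9 genes, 0 passed by limma in TE against ICM, where 4.31% of all genes did, and 2 were under 0.05 without adjustment. Star was lower in the TE with an adjusted p of 0.0478 by limma, but at a log2 fold change of -0.98, under 2-fold. Against the morula 0 of 9 passed, where 17% of all genes did, and 1 was under 0.05 without adjustment. The result turned on single libraries, since leaving out TE replicate 1, 3 or 5 brought Cyp11a1 past the threshold in both comparisons (log2 fold changes 1.98 to 2.16, adjusted p 0.0154 to 0.0476). So did leaving out ICM replicate 5 against the ICM (2.01, adjusted p = 0.0471) and morula replicate 3 against the morula (1.93, adjusted p = 0.0268). Leaving out TE replicate 4 or 6 instead lowered the log2 fold change of Cyp11a1 to 0.91 or 0.86 against the morula. Against the ICM it was then 1.03 or 0.97, and none of these passed. Within replicates 4 to 6 alone the change from morula to TE was 3.35 (adjusted p = 0.00761), and within replicates 1 to 3 alone it was -0.28.

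Where Cyp11a1 was high, its reads covered the gene. In TE replicates 2, 4 and 6, ICM replicates 5 and 6 and morula replicate 3 the assembled locus spanned at least 99% of the annotated gene, chr9:58015017-58027023, as in the 3 CC libraries. In the other TE libraries it spanned at most 8%. In TE replicates 4 and 6, 9 of the 10 cumulus markers were listed at 0 and their sum was 7.96 and 6.28 TPM. Hsd3b1 was at 0.0477 TPM in TE replicate 6 and at 0 in the other 5 TE libraries, and Hsd3b6, another enzyme of the same step, was at 0 in all 6. Elsewhere Hsd3b1 did accompany Cyp11a1, at 3.03 TPM in ICM replicate 6, where its locus spanned 77.8% of the gene, and at 0.454 TPM in morula replicate 3. The cumulus markers summed to 17.2 and 13.5 TPM in ICM replicates 5 and 6, within the 0 to 20.9 TPM of all 6 ICM libraries. Nearly all of these sums was the marker Amhr2, at 7.96 and 6.28 TPM in TE replicates 4 and 6. In ICM replicates 5 and 6 Amhr2 was at 17.1 and 13.5 TPM. Its mean was 4.35 TPM in CCs and 22 TPM at 8C, so the sums do not measure RNA left from CCs.

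In the SCNT TE, replicates 6 and 4 were highest both in TE markers and in Cyp11a1, which was at 60 and 49.1 TPM there. Replicate 5 was above replicate 2 in TE markers but below it in Cyp11a1. The sum of 6 TE markers was 14839, 13195 and 16075 TPM in TE replicates 4, 5 and 6, of which replicate 5 had 0.251 TPM of Cyp11a1, and it was 5129, 6901 and 6512 TPM in replicates 1 to 3. In the ICM it was highest in replicate 5 at 8403 TPM and lowest in replicate 6 at 1932 TPM, the 2 ICM libraries with Cyp11a1. TE replicates 4 to 6 had 3.87 to 4.28 aligned gigabases and replicates 1 to 3 had 2.15 to 2.58, and the part of depth in the result was not tested.

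In fertilized controls too, Cyp11a1 was found in the TE. It was at 3.85 and 2.83 TPM in the control TE and at 0 in both control ICM libraries, the one with high TE markers included. With the Max MO the TE was at 0.692 and 0.0839 TPM, and with the Mcrs1 MO at 2.24 and 0 TPM. All 4 of these libraries were below both controls, but the differences did not pass, at -1.67 (SE 0.56, adjusted p = 0.139) and -1.26 (SE 0.56, adjusted p = 0.212) on the log2 scale. The sum of TE markers was 18381 to 20547 TPM in the controls, 19608 to 21142 TPM with the Max MO and 15096 to 15586 TPM with the Mcrs1 MO.

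**Figure D5:**
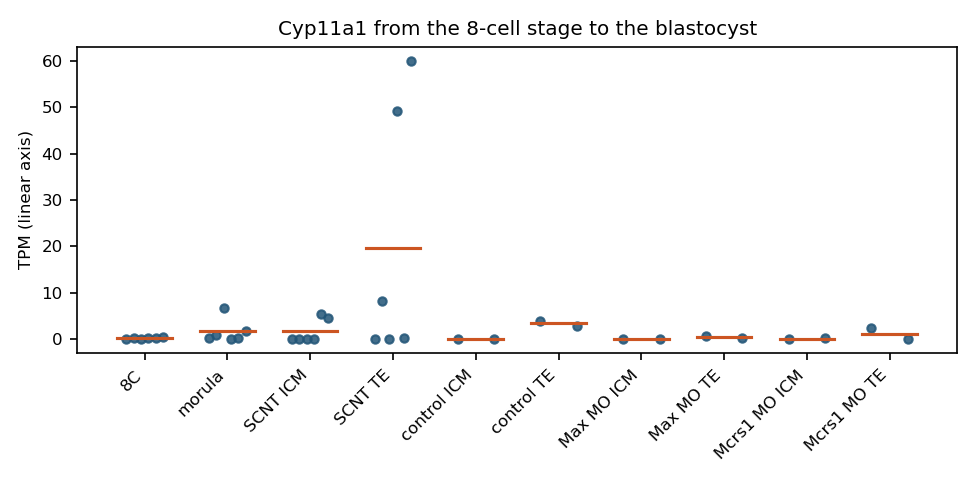
Points are the TPM of Cyp11a1 in single libraries on a linear axis and orange lines are group means, from 8C to the blastocyst of SCNT and fertilized embryos. SCNT TE libraries lie at 0 to 60 TPM, and no other group exceeds 6.61 TPM.

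Only Star and Cyp11a1 passed the filter of the fertilized set (at least 1 TPM in at least 2 of 12 libraries). Of these 2 genes 0 passed the threshold in each of the 4 MO comparisons by limma. Of all 12831 genes, 20.5% passed for the Max MO in the ICM and 1.8% in the TE. For the Mcrs1 MO the share was 8.43% in the ICM and 3.97% in the TE. The unadjusted p of Cyp11a1 in the TE was 0.0128 with the Max MO and 0.0467 with the Mcrs1 MO, and no other value was under 0.05. The response of Cyp11a1 did not differ between TE and ICM past the threshold by limma (interaction -1.67, adjusted p = 0.42 for the Max MO, and -1.36, adjusted p = 0.668 for the Mcrs1 MO). Since Cyp11a1 was at 0 in both control ICM libraries, a fall could not be seen in the ICM. Nothing is therefore read from this interaction. The other 8 genes were at most 0.433 TPM in any of the 12 libraries, a value reached by Inhba in 1 Mcrs1 MO TE library.

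Star was present at a low level in the SCNT ICM, at 4.77, 5.13, 3.53, 0.847, 0.0892 and 1.92 TPM in replicates 1 to 6. In the morula it was at most 1.55 TPM, and it passed as higher in the ICM (log2 fold change 1.13, SE 0.31, adjusted p = 0.00491), as 1 of 9 genes against 18.3% of all genes tested and 6.72% as higher. The high libraries are replicates 1 to 3, those with 6177 to 6771 genes at 1 TPM. Within replicates 4 to 6 alone the change was 0.57 (adjusted p = 0.188), and without ICM replicate 1 or 2 it was 0.95 or 0.93 and below 2-fold. In the TE Star was at most 2.39 TPM, and in the control libraries of the fertilized set it was at 0.719 and 2.96 TPM in the ICM and 1.59 and 3.95 TPM in the TE.

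Apart from 1 morula library, the level of Star outside CCs did not come with a full-length locus. In CCs the assembled locus spanned all of Star, chr8:25808513-25815982, in 3 of 3 libraries, and so it did in morula replicate 3. At L2C the loci on its strand covered at most 16.3% of the gene and in the SCNT ICM at most 15.4%. In the TE and in all 12 fertilized libraries there was no such locus. Ash2l, a subunit of histone methyltransferase complexes, lies on the opposite strand and ends at 25816001, 18 bases beyond Star. It averaged 18.2 TPM in CCs, 31.9 TPM at L2C, 331 TPM in the SCNT ICM and 325 TPM in the TE. Loci on its strand reached into Star in 3 of 6 libraries at L2C and 2 of 6 in the ICM. The part of Ash2l reads in the level of Star was not tested. With the TPM of the same-strand loci in place of that of the gene, Star changed by 0.64 from morula to ICM (adjusted p = 0.542) and fell short of the threshold from L2C to 4C too (adjusted p = 0.447).

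Of 26 other listed genes of the steroid pathway 23 were tested at 6 hpa, of which 18 were lower, 1 was higher and 4 did not pass, where 30.9% of all genes were lower and 21% higher. Their median change was -2.13, against -0.10 for all genes. A listed gene that passed the filter through CC libraries alone could only be lower at 6 hpa. How many did so was not counted, so the counts and medians of this list and those below are a description. Akr1c18, the enzyme that inactivates progesterone, was at 6306 ± 1342 TPM in CCs and at 58.6 ± 33.3 TPM at 6 hpa (log2 fold change -6.85, SE 0.56, adjusted p = 8.7e-16). Tspo, a cholesterol-binding protein of the outer mitochondrial membrane, was at 1.38 ± 1.22 TPM at 6 hpa (log2 fold change -7.82, SE 0.98, adjusted p = 9.1e-10). Sult1e1, the estrogen sulfotransferase, was at 124 ± 20.9 and 0.443 ± 0.443 TPM (log2 fold change -6.48, SE 0.15). The electron carriers of CYP11A1, Fdx1 and Fdxr, named in addition to the genes with the largest change, fell from 1359 and 55.6 TPM to 54.5 and 0.607 TPM. The gene that was higher was Npc1, a lysosomal cholesterol transporter, named after its value was seen. From 8C to morula 7 of the 23 genes were higher and 1 was lower, where 9.57% of all genes passed in either direction. The higher ones include Stard4, a carrier of cholesterol in the cytosol (9.59 ± 4.25 to 54.4 ± 23.5 TPM), and Scarb1, the lipoprotein receptor (0.396 ± 0.504 to 5.08 ± 3.28 TPM).

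Of 24 genes of hormone signalling 22 were tested at 6 hpa, where 11 were lower than in CCs, 4 higher and 7 not past the threshold, with a median of -1.14. This is 15 of 22 past the threshold, where 51.9% of all genes were, 30.9% as lower and 21% as higher. The limit set by the filter holds for this list too. Fst, which binds activin, was at 150 ± 10.1 TPM in CCs and 0.452 ± 0.282 TPM at 6 hpa (log2 fold change -6.72, SE 0.62), and Igf1 was at 52.2 ± 9.8 and 0.287 ± 0.135 TPM. The 4 that were higher were Esr1, Esr2, Bmpr1b and Smad3, named after their values were seen. Esr2, the estrogen receptor of granulosa cells, was at 0.371 to 1.83 TPM in CCs, at 25.9 to 34.7 TPM at 6 hpa, and at 9.82 ± 1.63 TPM at L2C against 38.7 ± 11.5 TPM at E2C (log2 fold change -1.84, SE 0.24, adjusted p = 1.5e-08). Unlike Cyp19a1, whose mean was highest at 6 hpa, Esr2 had its highest mean at 14 hpa (60.3 TPM). Amhr2 was higher at L2C than at E2C (5.19 ± 3.37 against 0.339 ± 0.221 TPM, log2 fold change 2.07, SE 0.49, adjusted p = 6.4e-04) and averaged 22 TPM at 8C, while Amh stayed at or near 0.

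Of 18 regulators of gonadal cells 17 were tested at 6 hpa, where 13 were lower, 0 higher and 4 not past the threshold, with a median of -2.15. Of all genes 30.9% were lower and 21% higher, and the limit set by the filter holds here as well. Runx1 was at 42.5 ± 7.15 TPM in CCs and 0.266 ± 0.179 TPM at 6 hpa (log2 fold change -5.10, SE 0.43, adjusted p = 4.8e-15), and Cebpa at 12.1 ± 5.51 and 0.0196 ± 0.0303 TPM (log2 fold change -3.58, SE 0.60). Nr5a2, which binds the same half-site as NR5A1 and is active in early embryos, did not pass at 6 hpa (-0.58, SE 0.43, adjusted p = 0.271). It was higher at L2C than at E2C (12 ± 3.57 against 4.5 ± 1.38 TPM, log2 fold change 1.24, SE 0.35), averaged 43.9 ± 9.41 TPM at morula, and was lower in the SCNT TE than at morula (8.98 ± 2.57 TPM, log2 fold change -2.18, SE 0.35, adjusted p = 4.1e-06). Nr5a1 was at 0 in every library from 4C to the SCNT blastocyst.

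The genes most like each member over the 56 CC and SCNT libraries were higher in CCs than at 6 hpa by mean, except for those most like Cyp19a1. Likeness is Pearson's r of log2(TPM + 1), a description in which the libraries of a group share their stage. Inha was most like Kcnj3 (r = 0.999) and Cd44 (0.998), and Nr5a1 most like Gm8883 (0.992) and Ifi202b (0.991). Hsd3b1 was most like Greb1 (0.965) and Pcsk5 (0.961), Inhba most like Zfp804a (0.962) and Gm8883 (0.959), Lhcgr most like Olfr810 (0.955) and Rbp4 (0.946), and Star most like Zfp467 and Tmem176a (0.919 each). Cyp19a1 was most like Stard13 (0.948) and Manba (0.938), which averaged 2.82 and 3.91 TPM in CCs and 62.4 and 47.1 TPM at 6 hpa. The 2 named genes were the first of many for most members. An r over 0.9 was reached by 230 genes for Inha, 206 for Nr5a1, 141 for Inhba, 129 for Hsd3b1 and 75 for Lhcgr. For Cyp19a1 it was reached by 52 genes and for Star by 51, but for Cyp11a1 and Fshr by 0. Cyp11a1 was most like Ptk2b (0.885) and Sfxn3 (0.868), and Fshr most like Slc8a1 (0.863) and Zfp358 (0.845).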

How the data were processed

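Per the labels and the study's methods, the authors used cutadapt 1.16 for trimming, HISAT2 for alignment to mm10 and StringTie for quantification. The versions of HISAT2 and StringTie are not given in the sources used here. The authors deposited 1 gene table per library with coverage, FPKM and TPM. The deposited TPM column lists assembled loci, which sum to 1000000, beside reference genes and was therefore handled as a score on the TPM scale. The deposited FPKM and coverage signal served only to estimate aligned gigabases. There are no counts, so count tests were not run and no counting interval is given.

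Conditions came from the labels. The TPM of each symbol was summed and log2(TPM + 1) was fitted with limma 3.58.1 (lmFit, eBayes with a trend, R 4.3.3), with all 10 groups of CC and SCNT libraries in 1 fit and the 6 fertilized groups in another, since each shares 1 estimate of the spread. Genes needed at least 1 TPM in at least 3 libraries, or in 2 of the fertilized set. P-values were adjusted by Benjamini-Hochberg over all genes tested. The fits were tested on simulated data. Tables were made with Python 3.11.15 and pandas 2.3.3. P-values measure the spread between libraries, which may be technical.

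All 10 members were described in every comparison. From the lists of pathway genes the 3 past the threshold with the largest change and no overlap of libraries were to be named per comparison, of which some are given, with exceptions marked, and for each member the 2 most alike genes. Of the listed genes 1, Sts, has no row. The members and lists were chosen with earlier results of these data known. Same-numbered libraries deviated together (every r over 0.1) for 14 hpa against 6 hpa (0.121 to 0.386) and SCNT TE against SCNT ICM (0.131 to 0.276), a hint from the data since the labels give no shared embryos. Alternatives were a pseudocount of 0.1, other filters, rescaling over reference genes, quantile normalization, fits of 2 groups, a replicate block, single libraries left out, replicates 1 to 3 or 4 to 6 alone, and, chosen after seeing the data, the TPM of same-strand assembled loci.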

Additional observations from a re-analysis of the deposited data

Results flagged for a closer look

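A gene reached 1 TPM in 25 combinations of a gene and a group of 5 or 6 libraries. Of these, 5 held a library whose gap to the next was large for the range of its group (Dixon's test at 95%). Chance alone meets this test in about 1 of 20 groups of normally distributed values. That rate does not hold here, since many levels lie at or near 0 and groups were taken for reaching 1 TPM. The 5 are therefore not set against it. Cyp11a1 was at 6.61 TPM in morula replicate 3 and at 0.0712 to 1.66 TPM in the other 5 libraries. Hsd3b1 was at 3.03 TPM in SCNT ICM replicate 6 and at 0 in the others. Inhba was at 1.86 TPM in 14 hpa replicate 3, with the others at 0 to 0.434 TPM, and at 3.95 TPM in E2C replicate 4, with the others at 0. Fshr was at 3.07 TPM in L2C replicate 2 and at most 0.0901 TPM in the others. All 5 are single high libraries, and their cause was not tested.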

How the results depend on the processing

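The 9 calls at 6 hpa, in the SCNT ICM and in the SCNT TE against CCs kept their direction and side of the threshold under every alternative, except that a mean of at least 1 TPM left 6 genes to test, of which 6 passed, that with the 2 groups alone 8 passed, and that without 1 CC library 6 to 7 passed. The genes missing from these counts were not tested there because they did not meet the filter. Among the steps between stages, the number of members past the threshold changed as follows, and the cause was not tested. From 6 to 14 hpa it was 1, and 2 with a pseudocount of 0.1 (Nr5a1 added). From 14 hpa to E2C it was 0, and 1 in replicates 1 to 3 alone (Cyp19a1, higher) and 1 with same-strand loci (Hsd3b1, lower). From E2C to L2C it was 1, and 3 with a pseudocount of 0.1, with TPM rescaled over reference genes and in replicates 4 to 6 alone (Hsd3b1 lower and Star higher added), and 1 to 2 with 1 library left out. From L2C to 4C it was 1, 2 with a pseudocount of 0.1 (Cyp19a1 added) and 0 with quantile normalization and with same-strand loci. From morula to SCNT ICM it was 1, and 0 in replicates 4 to 6 alone, with same-strand loci and with the 2 groups alone, and 0 to 1 with 1 library left out. From morula to SCNT TE it was 0, 1 in replicates 4 to 6 alone (Cyp11a1) and 0 to 1 with 1 library left out. Between SCNT TE and ICM it was 0, 1 with quantile normalization and in replicates 1 to 3 alone (Star, lower), and 0 to 2 with 1 library left out. The replicate block changed no count of members in any of the 16 comparisons. The count of all genes past the threshold moved by over 1.5 times as follows. With quantile normalization it was 1187 in place of 740 from 14 hpa to E2C, 124 in place of 231 for the Max MO in the TE and 300 in place of 509 for the Mcrs1 MO in the TE. In replicates 1 to 3 alone it was 1617 from 14 hpa to E2C and 1138 in place of 695 for SCNT TE against ICM, and in replicates 4 to 6 alone 2193 in place of 1375 from 6 to 14 hpa. With the 2 groups alone it was 1865 in place of 2958 from morula to SCNT ICM, 18 for SCNT TE against ICM, 0 in place of 2624 and 0 in place of 1082 for the Max and Mcrs1 MO in the ICM, and 676 and 1210 in the TE. It was 721 without a filter for the Mcrs1 MO in the ICM, and 128 with the replicate block for the Max MO in the TE. With 1 library left out it was 485 to 892 from 14 hpa to E2C, 1521 to 3363 and 68 to 2486 for the Max and Mcrs1 MO in the ICM, and 1 to 3 and 5 to 162 in the TE, where the lone library is taken to vary like the other groups. Depth sets a limit throughout, since the tables give no counts and a low or 0 TPM in 1 library can be a gene that was missed.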
